A study of Mus musculus with 6 samples.

Results

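The genes described here are the nuclear genes whose names begin with Nduf, which encode the subunits of respiratory complex I and several of the factors that assemble it. They were taken from a table of gene expression by name: every entry starting with Nduf was kept, except names marked -ps as pseudogenes, if its mean over the 6 libraries was at least 10. This gave 46 members of 13180 tested genes, in a table of 55401 entries, of which 38 carry subunit names and 8 carry assembly factor names (Ndufaf). The rule uses names and mean levels, not the difference between the groups. Names left out for low values were Ndufa4l2 and Ndufa11b, each listed above 0 in a single NaCl library, and Ndufs6b, listed at 0 in every library.

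The data are RNA-seq libraries of CD4+ T cells from the spleen of naive wild-type C57BL/6 mice, which were labelled with the dye CFSE and then cultured for 48 h. In the itaconate group (n = 3) the medium held 5 mM itaconate, a dicarboxylic acid that activated macrophages make from a citric acid cycle intermediate. In the NaCl group (n = 3) it held 5 mM NaCl. Both groups also received antibodies against CD3 and CD28, which stimulate the T cell receptor and its costimulatory receptor, and 200 U of the growth factor IL-2. Whether the 3 libraries of a group stem from different mice or cultures is not in the labels. The p-values therefore reflect the spread among these libraries alone, which may be technical.

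Complex I, the NADH:ubiquinone oxidoreductase, is the largest enzyme of the respiratory chain. It is L-shaped: a matrix arm takes electrons from NADH through a flavin and a chain of iron-sulfur clusters to ubiquinone, and a membrane arm pumps protons across the inner mitochondrial membrane. Core subunits carry out the reaction and are shared with bacteria, while accessory subunits surround them and stabilise the enzyme. The core of the matrix arm is encoded in the nucleus and the core of the membrane arm in mitochondrial DNA, so the products of both genomes meet during assembly, which needs dedicated assembly factors that are not part of the finished enzyme.

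Many promoters of respiratory chain genes are known to hold sites for the transcription factors NRF1, ETS family members such as GABP, and YY1. The promoters were searched on both strands for fixed letters, in a window of 250 bases before to 50 after the gene's start in RefSeq (assembly GRCm38.p6). For the members that start lay up to 538 bases from the one in the GENCODE annotation, from which the gene positions printed further on come. A window was found for 40 of the 46 members, and among those without one were Ndufa2, Ndufaf6, Ndufb4c, Ndufb9 and Ndufs1. The letters AAGATGGC, the centre of the YY1 motif, occurred in 8 of the 40 windows (20%), in 4.90% of the windows of 9758 tested genes and in 2.85% of all 27025 windows. These sites are shown because the motif was the one found in most members. All 8 matches lay on the gene's own strand and after the start, between 11 and 39 bases from it. Of the 478 tested genes with a match, 226 (47.3%) had it on that strand and after the start. The letters hold ATG, the triplet at which translation starts, and whether the matches lie at such starts was not tested. In the stretches of 30 bases from the reference genome, written 5′ to 3′ on the gene's strand, the capitals mark the motif.
Ndufs4 (chr13:114388045-114388074, minus strand): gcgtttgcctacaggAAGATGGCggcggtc
Ndufs6 (chr13:73328433-73328462, minus strand): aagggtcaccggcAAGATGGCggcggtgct
Ndufa9 (chr6:126849097-126849126, minus strand): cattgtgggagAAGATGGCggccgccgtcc
Ndufs7 (chr10:80249462-80249491, plus strand): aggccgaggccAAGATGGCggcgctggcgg
Ndufa3 (chr7:3617384-3617413, plus strand): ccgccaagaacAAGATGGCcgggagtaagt
Ndufb8 (chr19:44555393-44555422, minus strand): tgaaccgcggagaaggtgAAGATGGCtgcc
Ndufc1 (chr3:51408915-51408944, minus strand): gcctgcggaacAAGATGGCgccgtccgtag
Ndufaf8 (chr11:120098933-120098962, plus strand): aggcagggcccAAGATGGCggcgccctcga

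The letters GCATGCGC of the NRF1 motif, whose matches on the 2 strands can overlap each other, occurred in 5 of the 40 windows (12.5%) and in 5.67% of those of tested genes. The ETS letters CCGGAAG occurred in 6 member windows (15%) against 19.5% of those of tested genes, and ACGTG, the centre of the E-box bound by MYC and of the hypoxia response element, in 7 (17.5%) against 26.3%. Of the members that changed, described further on, Ndufs4 and Ndufc1 held the YY1 letters, Ndufb7 and Ndufs8 the ETS letters, Ndufaf5 the NRF1 letters and Ndufv3 the letters ACGTG. The sites of Ndufb7, Ndufs8 and Ndufaf5 are shown in the same way, and the one of Ndufs8 reads as the reverse complement of the ETS letters.
Ndufb7 (chr8:83566727-83566756, plus strand): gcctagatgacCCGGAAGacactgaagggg
Ndufs8 (chr19:3912741-3912770, minus strand): ttaggctccgcCTTCCGGttgaaccgcatc
Ndufaf5 (chr2:140170653-140170682, plus strand): gtcccgttggcGCATGCGCctaatagaaac

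The member that fell most, Ndufv3, and the core member that rose, Ndufs8, are shown with the 150 bases before their RefSeq starts. None of the letters searched lay in these stretches, since the ACGTG of Ndufv3 and the ETS letters of Ndufs8 are in other parts of their windows, which says nothing about whether a factor binds there.
Ndufv3 (chr17:31519965-31520114, plus strand): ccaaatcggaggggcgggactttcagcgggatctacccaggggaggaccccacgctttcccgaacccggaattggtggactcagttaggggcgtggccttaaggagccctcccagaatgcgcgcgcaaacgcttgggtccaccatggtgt
Ndufs8 (chr19:3912775-3912924, minus strand): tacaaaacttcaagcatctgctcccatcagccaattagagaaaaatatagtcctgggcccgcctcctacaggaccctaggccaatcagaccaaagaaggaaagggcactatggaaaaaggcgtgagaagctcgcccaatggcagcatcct

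The values are normalized estimated counts per gene, and the 6 libraries had between 20074299 and 24144999 estimated reads assigned to genes. Columns of the control group carry the code NAC, taken here to mean NaCl since the labels name no further treatment. The labels do not explain the code, which is also a usual short form of N-acetylcysteine, and every comparison depends on that choice. The summed level of 6 CD4 T cell markers was 50693 to 52878 with itaconate and 43004 to 48060 with NaCl, and 3 of the 6 were higher and 1 lower in the test across genes. Myeloid markers summed to 151 to 198 with itaconate and 56.1 to 90.5 with NaCl, and both that were tested of 5, Itgam and Cd68, were higher. Natural killer cell markers summed to 202 to 236 with itaconate and 95.4 to 129.5 with NaCl, with Eomes, which activated T cells also express, the 1 tested and higher, and Klre1 at 0. Neither CD8 T cell (308 to 365 with itaconate, 363 to 408 with NaCl) nor B cell markers (173 to 303 with itaconate, 224 to 304 with NaCl) had a gene that passed, and erythroid markers summed to at most 3.01, with Hba-a1 at 0. The part of these other cells in the results was not tested. In bulk RNA, fewer cells of a type and less RNA per cell cannot be told apart.

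Most of the nuclear complex I genes stayed close to their control level: 42 of the 46 differed by less than 0.5 on the log2 scale. Of all 13180 tested genes, 8597 did so. The median difference of the members was −0.03, beside −0.00088 for all tested genes. By limma on log2(value + 1), with p-values adjusted by Benjamini-Hochberg across the whole table and a threshold of 0.05, 6 members fell with itaconate and 3 rose. That is 19.6% of the members, while 36.0% of all tested genes passed (18.2% higher and 17.8% lower). The fallen members were all accessory subunits: Ndufv3, Ndufs4, Ndufc1, Ndufb9, Ndufb7 and Ndufc2. The risen members were the core subunit Ndufs8 and the assembly factors Ndufaf5 and Ndufaf6. The groups did not overlap for 17 members (37.0%), 9 higher and 8 lower with itaconate, and for 48.4% of all tested genes, 24.2% higher and 24.2% lower.

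**Figure D1:**
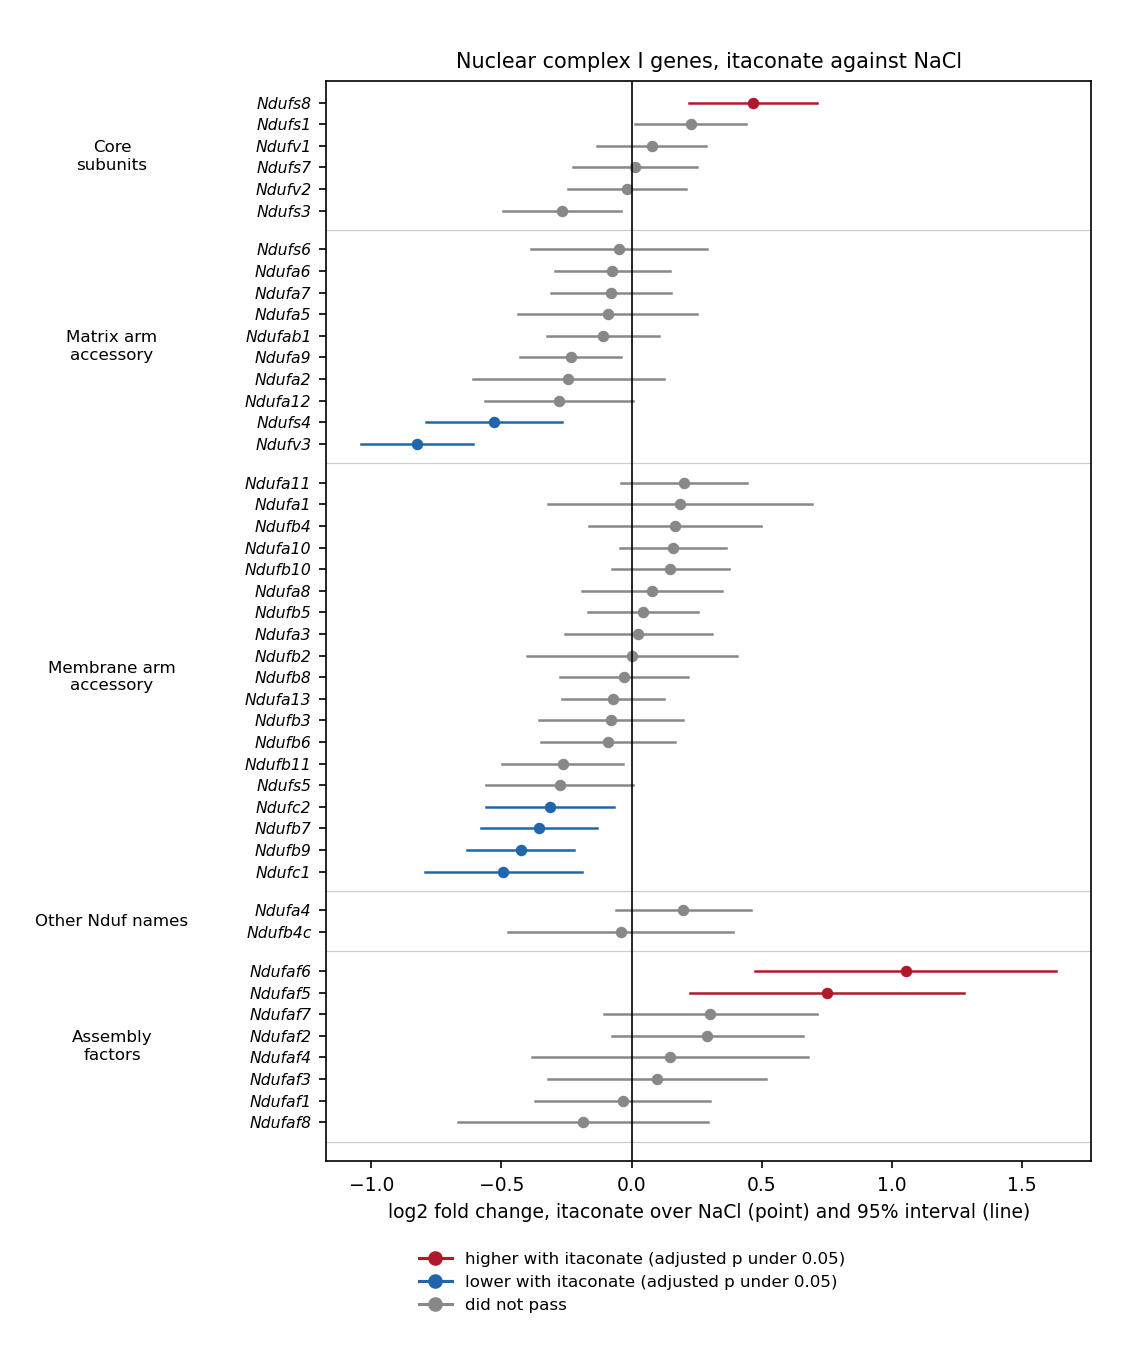
Log2 fold change of itaconate over NaCl for the members reported (points) with its 95% interval from limma (lines), arranged by role. Ndufv3 at −0.83 and Ndufaf6 at 1.05 mark the ends of the range, and the interval of most accessory subunits includes 0.

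The 38 subunit names and the 8 assembly factor names differed in their middle values. Among the subunit names 1 rose (2.63%, beside 18.2% of all tested genes), 6 fell (15.8%, beside 17.8%) and 31 did not pass. Their median was −0.06. Among the assembly factors 2 rose (25%, beside 18.2%), none fell (beside 17.8%) and 6 did not pass. The assembly factors had a median of 0.22 and a range of −0.19 to 1.05. Library by library, their median log2 difference from the NaCl mean was 0.305, 0.143 and 0.237 with itaconate. It was 0.146, −0.017 and 0.015 in the NaCl libraries, so the groups overlapped. Trends of the log2 values with GC content and transcript length were then removed from each library. The split of the subunit names became 6 higher and 4 lower, against 1 higher and 6 lower in the values as deposited. Their median turned to 0.08, and of all 12953 genes tested in that setting 2455 were higher and 2484 lower. Subunits that then passed as higher included Ndufs8, Ndufs1, Ndufa10, Ndufa4 and Ndufb10, and those lower were Ndufv3, Ndufs4, Ndufb9 and Ndufb7. Without NaCl replicate 3, 4 subunit names passed (1 higher, 3 lower), beside 3781 of all tested genes.

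The core subunits bind the flavin and the iron-sulfur clusters and form the site where ubiquinone is reduced. Of the 7 encoded in the nucleus, 1 rose (14.3%, beside 18.2% of all tested genes), none fell (beside 17.8%) and 6 did not pass. The median log2 difference was 0.08. Their summed level was 11049 ± 496 with itaconate and 10239 ± 309 with NaCl (SD, n = 3 each).

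Ndufs8 (chr19:3908863-3912774, minus strand, in mm10), which carries iron-sulfur clusters on the path to ubiquinone, was the core member that rose. Its normalized counts were 1187, 1179 and 1049 in the itaconate libraries, against 837, 729 and 909.5 in the NaCl libraries. Every itaconate library lay above every NaCl library. The means were 1138 ± 77.6 with itaconate and 825 ± 90.7 with NaCl (SD, n = 3 each), a 1.38-fold difference with a log2 fold change of 0.47 ± 0.11 (SE, adjusted p = 0.0067).

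Ndufs1, the largest core subunit and a carrier of iron-sulfur clusters, had 1825, 1791 and 1558 in the itaconate libraries, against 1549, 1477 and 1388 in the NaCl libraries. The lowest itaconate library lay above the highest NaCl library, but the gene did not pass, with a log2 fold change of 0.23 (95% interval 0.01 to 0.44, adjusted p = 0.0907). It passed with GC content and length trends removed (0.0227) and without itaconate replicate 3 (0.0347), in a range of 0.0227 to 0.244.

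Ndufs3, a matrix arm subunit that binds no cofactor, lay lower with itaconate, with 918, 1043 and 869 in the itaconate libraries, against 1147, 1107 and 1143 in the NaCl libraries. Its groups did not overlap, and its log2 fold change was −0.27 (−0.49 to −0.04, adjusted p = 0.063), which did not pass. It passed with quantile normalization (0.0432) and without itaconate replicate 2 (0.0490), in a range of 0.0394 to 0.309 over all settings. Ndufs3 shares 49.3% of the 31-base stretches of its transcripts with other genes, mostly with the predicted gene Gm12251, so its reads could be divided. The mean value listed for Gm12251 was only 1.34.

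In Ndufv1, Ndufv2 and Ndufs7 the groups overlapped. Ndufv1, which binds the flavin and oxidises NADH, had 1341, 1394 and 1318 in the itaconate libraries, against 1265, 1195 and 1387 in the NaCl libraries, a log2 difference of 0.08 (−0.13 to 0.29). Ndufv2, its neighbour with an iron-sulfur cluster, had 1766, 1496 and 1439 in the itaconate libraries, against 1687, 1590.2 and 1470.5 in the NaCl libraries, a difference of −0.02 (−0.25 to 0.21). Ndufs7, which holds the last cluster before ubiquinone, had 914, 878 and 1024 in the itaconate libraries, against 973, 848 and 969 in the NaCl libraries, a difference of 0.01 (−0.23 to 0.25). These intervals exclude a change of 0.5 on the log2 scale in either direction.

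Accessory subunits of the matrix arm surround the core where NADH and ubiquinone react. Of 10 members, 2 fell (20%, beside 17.8% of all tested genes), none rose (beside 18.2%) and 8 did not pass. All 10 log2 differences were below 0, with a median of −0.17. With GC content and length trends removed, Ndufa5, Ndufa6, Ndufa7 and Ndufs6 lay above 0. The summed level of the 10 members was 11157 ± 244 with itaconate and 13886 ± 963 with NaCl, so that it was 80.3% of the NaCl level. The largest part of this difference lay in Ndufv3 alone, with a mean of 1906 with itaconate and 3377 with NaCl.

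Ndufv3 (chr17:31520115-31531331, plus strand) encodes a small accessory protein bound next to the flavin-containing tip of the matrix arm, and occurs in a short and a long form made by alternative splicing. Its normalized counts were 1742, 2089 and 1888 in the itaconate libraries, against 3237, 3182 and 3713 in the NaCl libraries. The highest itaconate library was far below the lowest NaCl library. The means were 1906 ± 174 with itaconate and 3377 ± 292 with NaCl (SD, n = 3 each), 1.77-fold lower with itaconate, and the log2 fold change was −0.83 ± 0.10 (SE, adjusted p = 6.06e-05). Across all 16 alternative settings the log2 fold change of Ndufv3 ranged over −0.89 to −0.76, and it passed in each. The table gives 1 value per gene and does not separate its forms.

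Ndufs4 (chr13:114287795-114388258, minus strand) encodes a subunit needed late in assembly of the matrix arm, and mice that lack it develop a fatal brain disease like Leigh syndrome. It had 705, 838 and 713 in the itaconate libraries, against 1181, 1129 and 951 in the NaCl libraries. No itaconate library reached a NaCl library. The means were 752 ± 74.3 with itaconate and 1087 ± 120.5 with NaCl (SD, n = 3 each), and the log2 fold change was −0.53 ± 0.12 (SE, adjusted p = 0.00437), 1.44-fold lower with itaconate.

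The other matrix arm members did not pass in the values as deposited with all libraries. Ndufa9, which binds a nicotinamide nucleotide near the ubiquinone site, had 1617, 1506 and 1468 in the itaconate libraries, against 1865, 1771 and 1763 in the NaCl libraries, without overlap. Its log2 fold change was −0.23 (−0.43 to −0.04, adjusted p = 0.0588), with one of the smallest standard errors of the members, 0.0900. It passed with quantile normalization (0.0267), in a range of 0.0267 to 0.466. Ndufa12, the subunit that takes the place of the assembly factor Ndufaf2, was at −0.28 (−0.56 to 0.01) with overlapping groups, and passed without NaCl replicate 2 (adjusted p = 0.0344, in a range of 0.0344 to 0.477). The thioredoxin-like Ndufa2 was at −0.24, and the acyl carrier protein Ndufab1 at −0.11. Ndufa5, Ndufa6, Ndufa7 and the zinc-binding Ndufs6 lay between −0.09 and −0.05.

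**Figure D2:**
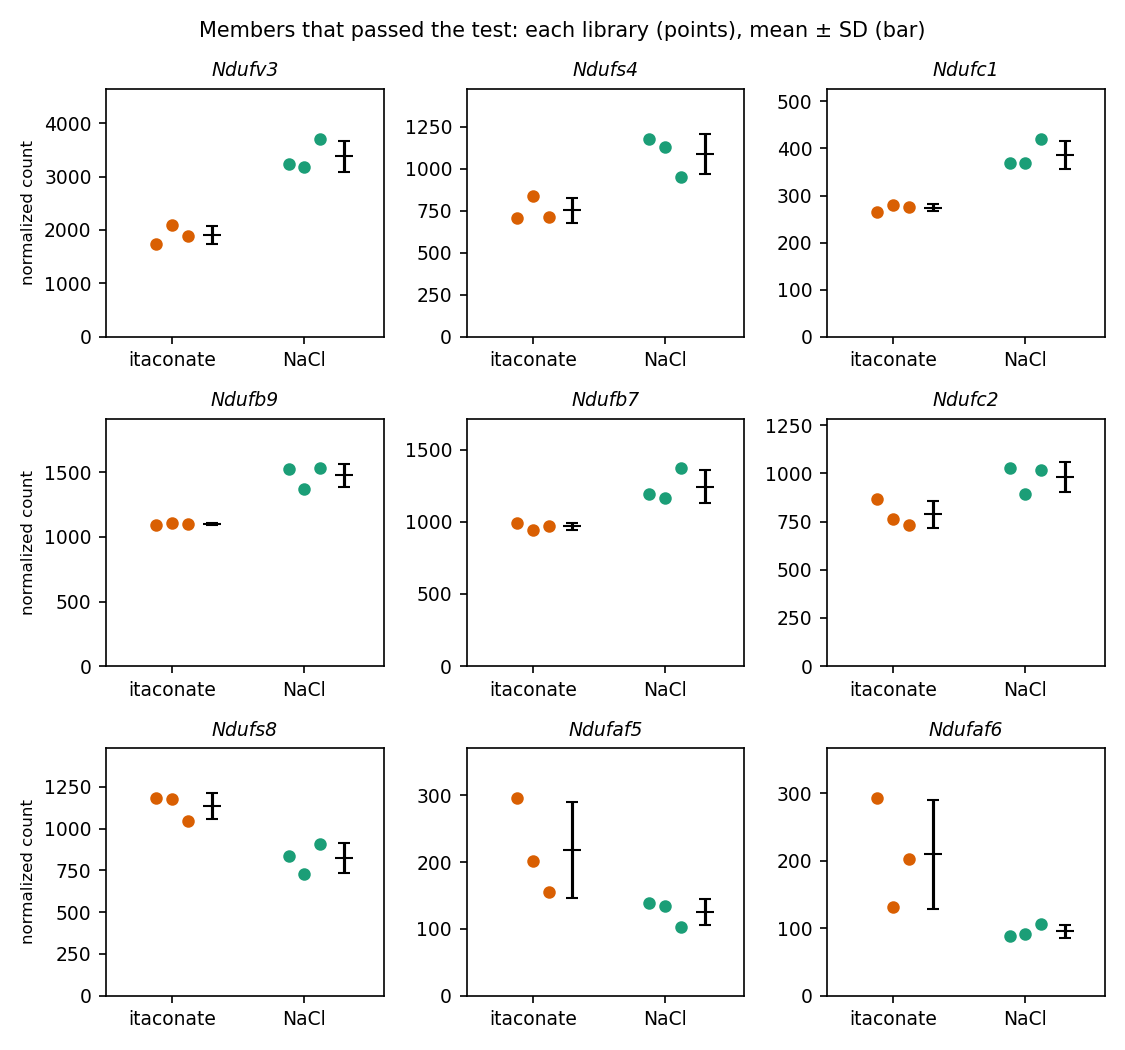
Normalized counts of the 9 members that passed the test in each library (points), with mean ± SD at the right of each group (n = 3 each), on axes that start at 0. The itaconate points lie below the NaCl points in the 6 genes that fell and above them in Ndufs8, Ndufaf5 and Ndufaf6, where the itaconate points of both assembly factors are spread widely.

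Accessory subunits of the membrane arm hold the proton-pumping part of the enzyme together. Of 19 measured members, 4 fell (21.1%, beside 17.8% of all tested genes), none rose (beside 18.2%) and 15 did not pass. The median log2 difference was −0.03, with 9 above 0 and 10 below. Their summed level was 16685 ± 427 with itaconate and 17802 ± 1016 with NaCl (SD, n = 3 each). The listed Ndufb1 had no entry of that name, and the entry Ndufb1-ps, excluded by its name, had 722, 693 and 476 with itaconate, against 699.6, 785 and 671 with NaCl.

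Ndufb9 (chr15:58933756-58939488, plus strand), a subunit of the LYR protein family at the matrix face of the membrane arm, had 1089, 1105 and 1099 in the itaconate libraries, against 1524, 1373 and 1533 in the NaCl libraries. The 3 itaconate libraries differed little from each other and all lay below the NaCl libraries. The means were 1098 ± 8.41 with itaconate and 1477 ± 89.7 with NaCl (SD, n = 3 each), and the log2 fold change was −0.43 ± 0.09 (SE, adjusted p = 0.00391), 1.34-fold lower. Ndufb9 shares 25.5% of its 31-base stretches with the overlapping predicted gene Gm49356, whose mean value was 1.17.

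Ndufb7 (chr8:83566671-83571626, plus strand) lies on the intermembrane space side and has the paired cysteine motifs of proteins imported there by disulfide relay. It had 993, 946 and 969.9 in the itaconate libraries, against 1195, 1163 and 1372 in the NaCl libraries, without overlap. The log2 fold change was −0.35 ± 0.10 (SE, adjusted p = 0.0168), and the call was lost without itaconate replicate 2 (adjusted p = 0.0638) and without NaCl replicate 3 (0.0795), in a range of 0.0067 to 0.0795 over all settings.

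Ndufc1 and Ndufc2 are small membrane-spanning subunits near the bend of the enzyme. Ndufc1 (chr3:51404677-51408988, minus strand) had 266, 280.4 and 276 in the itaconate libraries, against 370.2, 369 and 421 in the NaCl libraries, and its log2 fold change was −0.49 ± 0.14 (SE, adjusted p = 0.0148). Ndufc2 (chr7:97400003-97407802, plus strand) had 868, 763 and 735 in the itaconate libraries, against 1028, 891 and 1020.3 in the NaCl libraries, with a log2 fold change of −0.31 ± 0.11 (SE, adjusted p = 0.046). Neither gene's groups overlapped, and both calls were lost when GC content and length trends were removed, where the log2 fold change was −0.30 for Ndufc1 (adjusted p = 0.0979) and −0.12 for Ndufc2 (0.380). Without NaCl replicate 3 Ndufc1 did not pass either (0.0677). The call of Ndufc2 was also lost without itaconate replicate 2 (0.134), itaconate replicate 3 (0.108), NaCl replicate 1 (0.130) or NaCl replicate 3 (0.134), with no filter on low values (0.0612) and with no intensity trend (0.0877), and its adjusted p ranged over 0.0212 to 0.38.

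The 15 membrane arm subunits that did not pass lay between −0.28 and 0.20 on the log2 scale. The lowest were Ndufs5, a protein of the intermembrane space, at −0.28 (−0.56 to 0.01) and the X-linked Ndufb11 at −0.27 (−0.50 to −0.03, adjusted p = 0.0717). Ndufb11 passed with quantile normalization (0.0460), without NaCl replicate 1 (0.0293) and without itaconate replicate 3 (0.0493), in a range of 0.0159 to 0.398. In Ndufa10, Ndufa11 and Ndufb10 the itaconate libraries all lay above the NaCl libraries, with differences of 0.16, 0.20 and 0.15 in that order. Ndufa11, which joins the membrane arm's parts, had 898, 826 and 794 with itaconate, against 690.4, 706 and 794 with NaCl, so the nearest libraries differed by less than 1. Ndufa13, which is also known to bind STAT3, was at −0.07 and Ndufb8, whose protein is often blotted as a gauge of assembled complex I, at −0.03. Ndufa3, Ndufa8, Ndufb2, Ndufb3, Ndufb4, Ndufb5 and Ndufb6 lay between −0.09 and 0.17.

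The X-linked Ndufa1 had the largest standard error of the subunits, 0.234. It had 425, 381 and 351 in the itaconate libraries, against 427, 211 and 428 in the NaCl libraries, and NaCl replicate 2 alone was low. Its log2 difference was 0.19 over all libraries and −0.15 without NaCl replicate 2. That library was the lowest of the 3 NaCl libraries for 28 of the 46 members (60.9%), against 31.8% of all tested genes, and the highest for 2 members. Without it the median of the subunit names was −0.14.

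Outside the enzyme proper, Ndufa4, a protein now assigned to complex IV, had 1116, 886 and 902 in the itaconate libraries, against 840.3, 777 and 904 in the NaCl libraries, a log2 difference of 0.20 (−0.06 to 0.46). Ndufb4c is annotated as a processed pseudogene of Ndufb4 and shares sequence with it: 38.3% of the 31-base stretches of Ndufb4 are also in Ndufb4c. Ndufb4 was at 0.17 and Ndufb4c at −0.04, and how reads were divided between them is uncertain. Leaving Ndufa4 and Ndufb4c out, 36 subunit genes remained, with 1 higher and 6 lower. The library strand setting is not given in the sources used here, and 17 of the 46 members overlap a gene on the other strand, but none of the 9 that passed does.

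The Ndufaf assembly factors act at successive steps, some on the matrix arm around the ubiquinone site and others on the membrane arm. Their summed level was 1806 ± 209 with itaconate and 1518 ± 106 with NaCl (SD, n = 3 each), and 6 of 8 were above 0 on the log2 scale. Of the 8, 2 rose (25%, beside 18.2% of all tested genes): Ndufaf5 and Ndufaf6.

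Ndufaf6 (chr4:11051045-11076205, minus strand), an early assembly factor related to phytoene synthases, had 294, 132 and 202 in the itaconate libraries, against 88.7, 91.4 and 106 in the NaCl libraries. All itaconate libraries lay above the NaCl libraries, and itaconate replicate 1 stood well above the other two. The means were 209 ± 81.0 with itaconate and 95.4 ± 9.41 with NaCl (SD, n = 3 each), a 2.08-fold difference, and the log2 fold change was 1.05 ± 0.27 (SE, adjusted p = 0.00826), with the largest standard error of the members. It passed in all settings, with an adjusted p of 0.00262 to 0.0446 and a log2 fold change of 0.77 to 1.35.

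Ndufaf5 (chr2:140170649-140203689, plus strand) encodes an enzyme shown in human cells to hydroxylate an arginine of NDUFS7. It had 296, 202 and 155 in the itaconate libraries, against 139, 135 and 103 in the NaCl libraries. The groups did not overlap, and itaconate replicate 1 was again the highest. The means were 218 ± 72.1 with itaconate and 126 ± 19.3 with NaCl (SD, n = 3 each), and the log2 fold change was 0.75 ± 0.24 (SE, adjusted p = 0.0291), 1.68-fold higher with itaconate. Without itaconate replicate 1 the log2 fold change was 0.50 and did not pass (adjusted p = 0.132), and the call was also lost without itaconate replicate 2 (0.0688), NaCl replicate 2 (0.0595) or NaCl replicate 3 (0.112), with no filter on low values (0.0503) and with no intensity trend (0.0827), in a range of 0.00545 to 0.132. Its partner factor Ndufaf8 had 155, 127 and 131 with itaconate, against 172, 118 and 189 with NaCl, with overlapping groups and a log2 difference of −0.19 (−0.67 to 0.29).

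Ndufaf2, which holds the place of Ndufa12 during assembly, had 214, 199 and 243 in the itaconate libraries, against 185, 181 and 169 in the NaCl libraries, without overlap, but its log2 difference of 0.29 (−0.08 to 0.66, adjusted p = 0.203) did not pass. With GC content and length trends removed it was 0.49 and passed (0.0407), as the third assembly factor. Ndufaf7, known in human cells to methylate an arginine of a core subunit, had 283, 215 and 235 with itaconate, against 228, 207 and 161 with NaCl, a difference of 0.30 (−0.11 to 0.71) with overlapping groups.

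Ndufaf3 and Ndufaf4 work together on the ubiquinone module, and Ndufaf1 on the membrane arm. Ndufaf3 had 147, 132 and 158 with itaconate, against 151, 129 and 129 with NaCl, a log2 difference of 0.10 (−0.32 to 0.52). Ndufaf4 had 329, 304 and 237 with itaconate, against 368, 169.8 and 279 with NaCl, a difference of 0.15 (−0.38 to 0.68), with the second largest standard error of the members, 0.245. Ndufaf1 had 327, 363 and 335 with itaconate, against 288, 378 and 393 with NaCl, a difference of −0.03 (−0.37 to 0.30). The groups overlapped in all 3, and the intervals of Ndufaf3 and Ndufaf4 reach past 0.5, so a difference of that size is not excluded.

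Assembly factors without the Ndufaf name were counted from a separate list. Of 14 measured genes of a list of 15, 4 fell, none rose and 10 did not pass, with a median log2 difference of −0.20 and 12 of 14 below 0. The share that fell was 28.6%, beside 17.8% of all tested genes, and 25% of the Ndufaf factors rose, beside 18.2%. Whether the 2 lists differ was not tested. Lyrm2, of the LYR family, had 94.5, 65.5 and 61.6 in the itaconate libraries, against 178, 157 and 143 in the NaCl libraries, a log2 fold change of −1.12 ± 0.24 (SE, adjusted p = 0.00304). Ecsit, a partner of Ndufaf1 in the membrane arm assembly complex, had 352, 378 and 366 in the itaconate libraries, against 516, 524 and 516 in the NaCl libraries, a change of −0.51 ± 0.12 (SE, adjusted p = 0.0064). Neither gene's groups overlapped.

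Nubpl, which is needed for the iron-sulfur clusters of complex I, had 96.3, 121 and 95.5 in the itaconate libraries, against 170.3, 205 and 149 in the NaCl libraries, a log2 fold change of −0.73 ± 0.21 (SE, adjusted p = 0.0167). Tmem186, another component of the membrane arm assembly complex, had 217, 184 and 245 in the itaconate libraries, against 298, 337 and 296 in the NaCl libraries, a change of −0.53 ± 0.16 (SE, adjusted p = 0.0231). Both were without overlap between the groups. Without NaCl replicate 2, 2 of these 4 genes passed, Lyrm2 and Ecsit, while Nubpl (adjusted p = 0.0829) and Tmem186 (0.0921) did not. Tmem186 was also lost without itaconate replicate 2 (0.0991) or NaCl replicate 3 (0.0504).

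**Figure D3:**
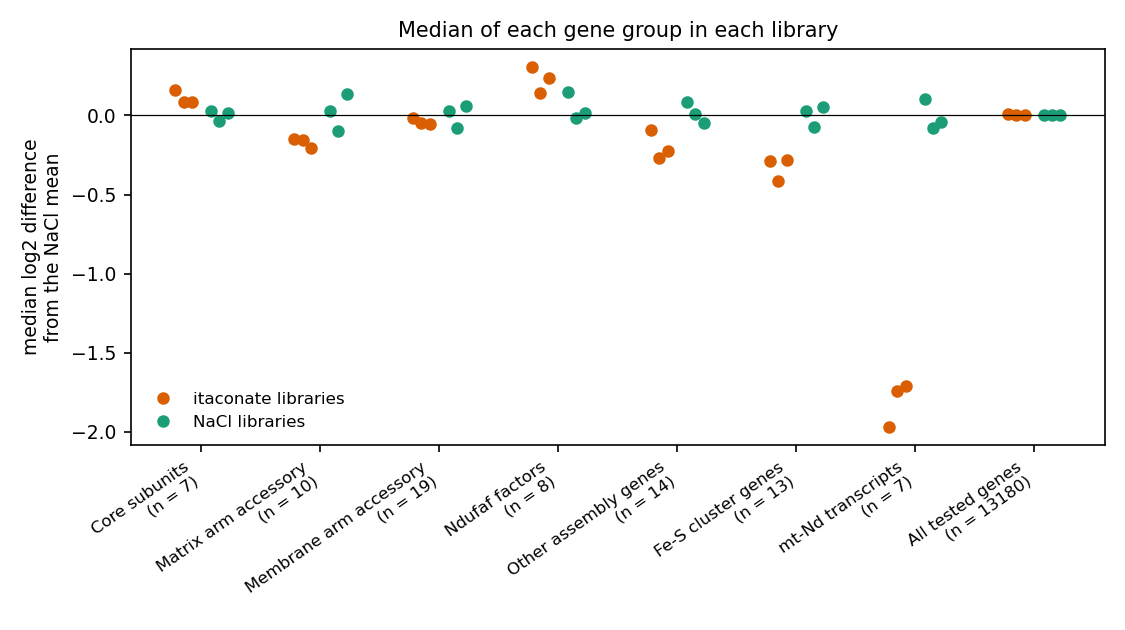
Median log2 difference of each gene group from the NaCl mean in the values as deposited, in each itaconate library (orange) and each NaCl library (green). The itaconate libraries lie below the NaCl libraries for the matrix arm accessory subunits and above them for the core subunits, by less than 0.5 in each case, while the mt-Nd transcripts lie below −1.5. For the Ndufaf factors the groups overlap.

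Iron-sulfur clusters are built in the mitochondrial matrix and handed to core subunits such as Ndufs1, Ndufs7 and Ndufs8. Of 13 measured genes of 14 listed for this machinery, 7 fell, 2 rose and 4 did not pass, with a median log2 difference of −0.44. Of all tested genes, 17.8% were lower and 18.2% higher. Nfu1, a carrier that delivers clusters to complex I among other targets, had 657, 657 and 717 in the itaconate libraries, against 1468, 1128 and 1338 in the NaCl libraries, a log2 fold change of −0.95 ± 0.12 (SE, adjusted p = 7.52e-05). The late-acting Isca2 was at −0.66 ± 0.12 (adjusted p = 0.0013) and Iba57 at −0.81 ± 0.19 (adjusted p = 0.00596). Hspa9, the mitochondrial chaperone of cluster transfer that also imports other proteins, was at −0.48 ± 0.10 (adjusted p = 0.00356). Between 6 and 9 genes of the list passed when single libraries were left out or the processing was changed.

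The 7 complex I subunits encoded in mitochondrial DNA all fell, beside 17.8% of all tested genes. Their median log2 fold change was −1.88, from −2.77 for mt-Nd4l to −1.15 for mt-Nd2. The call of mt-Nd4l was lost with no intensity trend (adjusted p = 0.0669) and with robust variances (0.0946). Their summed level was 24859.7 ± 2704 with itaconate and 79457 ± 4491 with NaCl. Divided by the summed level of the nuclear subunit names in the same library, the ratio was 0.598, 0.554 and 0.714 with itaconate, against 1.96, 1.86 and 1.73 with NaCl. The nuclear sum itself was 40056 ± 1089 with itaconate and 42969 ± 2206 with NaCl. How far nuclear copies of mitochondrial genes shared these reads was not tested.

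The nuclear subunits of complexes II to V gave a setting for these counts. Of 39 measured of 40 listed, 5 rose (12.8%, beside 18.2% of all tested genes), 2 fell (5.13%, beside 17.8%) and 32 did not pass. The median log2 difference was 0.09, with 31 above 0. Of 9 measured regulators of respiratory chain genes, the coactivator Ppargc1b rose, with 112, 72.0 and 90.3 in the itaconate libraries, against 38.8, 49.2 and 25.4 in the NaCl libraries and a log2 fold change of 1.28 ± 0.33 (SE, adjusted p = 0.00861). Gabpb2, a subunit of the ETS factor GABP, fell by 0.43 on that scale (adjusted p = 0.00697), and its call was lost with no intensity trend (0.0590). The other 7, Yy1 and Nrf1 among them, did not pass.

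Per length of the principal transcript in the annotation, the members differed widely in level in NaCl cells. The highest was Ndufa6 at 3496 normalized counts per kb with itaconate and 3698 with NaCl. It was followed in NaCl cells by Ndufa7, Ndufb11 and Ndufv3. Ndufv3 had 1205 per kb with itaconate and 2135 with NaCl. Ndufs1, the lowest of the core, had 657 per kb with itaconate and 560.3 with NaCl.

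The assembly factors were the lowest group per length, from 74.9 per kb for Ndufaf4 to 263 for Ndufaf2 with NaCl. They took 8 of the last 9 ranks, and the remaining one was Ndufb2, whose principal transcript is given as 2413 bases. Ndufaf6 had 193 per kb with itaconate and 88.2 with NaCl, and Ndufaf5 had 187 with itaconate and 108 with NaCl. Both risen factors thus stayed below the level per kb of every core subunit. Levels per length depend on which transcript is taken as principal.

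**Figure D4:**
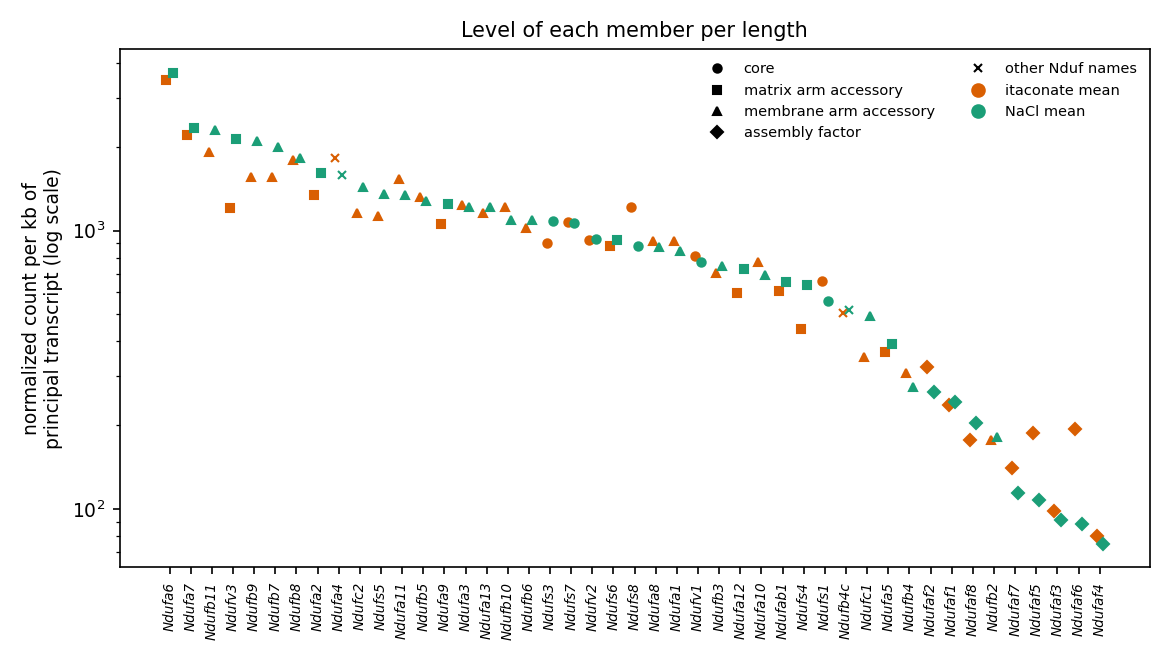
Mean normalized count per kb of principal transcript on a log axis, in itaconate (orange) and NaCl (green) libraries, with the members reported ordered by their NaCl level and symbols for their role. The assembly factors (diamonds) sit at the right end, and Ndufv3, the fourth from the left, has the widest gap among the highly expressed members.

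Many complex I subunits are small proteins with short transcripts. The median principal transcript of the members was 891.5 bases, against 2733 bases for tested genes with an annotated length. Of the 20 members under 800 bases, 4 fell and none rose, with a median log2 difference of −0.08. Of all 815 tested genes of that length, 11.4% were lower and 5.40% higher, with a median of −0.05. Of the 26 longer members, 2 fell (7.69%) and 3 rose (11.5%). Of all tested genes of 800 bases or more, 18.3% were lower and 19.2% higher. The part of transcript length in the members' differences was not tested further than by removing the trend.

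**Figure D5:**
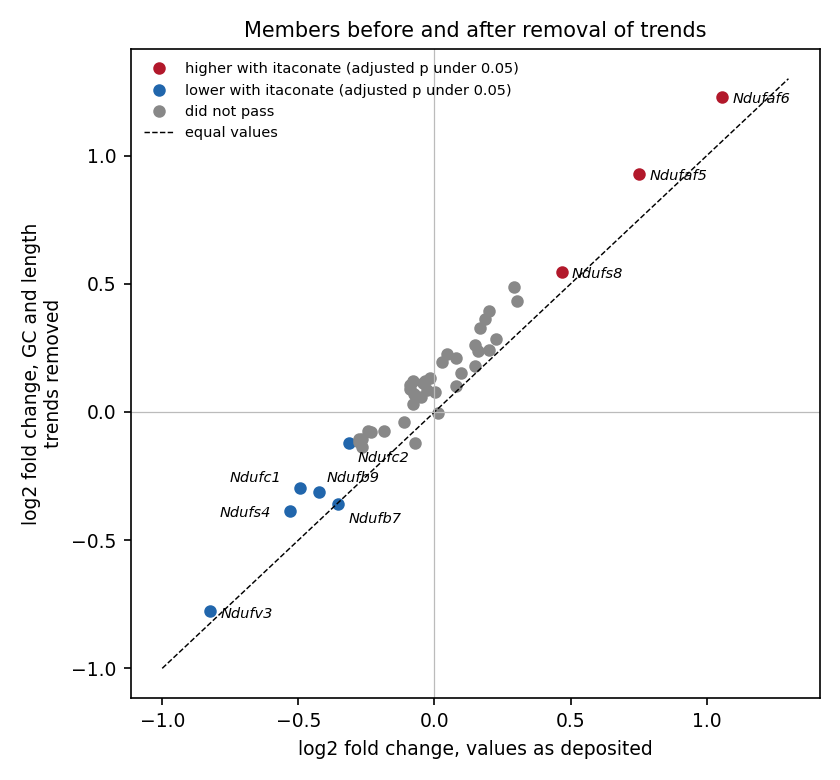
Log2 fold change of the members reported, from the values as deposited (x axis) and after trends with GC content and transcript length were removed from each library (y axis), with colours for the call in the values as deposited. Most points lie above the line of equal values, and Ndufv3, Ndufs8, Ndufaf5 and Ndufaf6 stay far from 0 on both axes.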

How the data were processed

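RNA-seq libraries of CD4+ T cells cultured with itaconate or NaCl (3 each) were used. The table the authors deposited holds 1 normalized estimated count per gene symbol and library, handled here as a non-negative signal. STAR 2.7.0f, RSEM 1.3.0 and the build mm10 are named, per the submitters' processing notes. The gene models, the tool behind the size factors and the strand setting: not given in the sources used here. The most frequent value above 0 in each library was taken as 1 read, which gave the estimated depth. In that unit 100% of values above 0 were multiples of a hundredth of a read, and between 79.9% and 82.2% were whole reads. The values are thus estimated and not raw counts, and no count model was run. Estimated counts of near-identical genes can be divided by RSEM, and normalized values do not show a change shared by most genes.

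Libraries were grouped by title and table columns by treatment code and number. Entries with a mean of at least 10 were tested with limma 3.58.1 in R 4.3.3 on log2(value + 1), without covariates, letting the variance follow the mean level, and two-sided p-values were adjusted by Benjamini-Hochberg over all 13180 at 0.05. Fold changes are on that scale, and understate the change of low genes. The fit was tested on simulated data in which few genes changed and genes varied independently, which differs from these data. Depth limits low genes most, and intervals come from the spread between libraries. Within groups the libraries correlated at 0.973 to 0.979 across genes, which are not independent, and none was left out.

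The members and gene lists were chosen with earlier results of these data known. Full values are given for members that passed, for core subunits and assembly factors, and for the members with the smallest and largest standard errors; of other lists, at most 4 genes that passed, by smallest p. Some genes that this rule picks are counted but not reported here. Positions and lengths come from GENCODE M21 (GRCm38), which held 98.3% of tested symbols and all members. Sequences come from RefSeq (GRCm38.p6). Alternatives were pseudocounts of 0.1 and 10, no filter, a mean of at least 100, TMM factors and quantile normalization, the replicate block, no intensity trend, robust variances, removal of GC content and length trends, and each library left out in turn.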

Additional observations from a re-analysis of the deposited data

How the results depend on the processing

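Of 736 values of members under alternative settings, 665 kept their direction and their side of the threshold, and no member that passed changed sign. Of the 9 that passed, 5 (Ndufv3, Ndufs4, Ndufb9, Ndufs8 and Ndufaf6) passed under every alternative. The count of all tested genes stayed within 3478 to 5636. It was 4760 with quantile normalization and 4939 after removal of the GC content and length trends. The number of subunit names that passed was 7, against 4 to 8 with 1 library left out, 6 with no filter on low values or no intensity trend, 10 with quantile normalization (1 higher, 9 lower), and 10 (6 higher, 4 lower) after removal of the GC content and length trends. Assembly factors that passed numbered 2, against 1 with no filter on low values, 1 with no intensity trend, and 1 to 2 with a library left out. For the other complex I assembly genes it was 4, and 2 to 4 with a library left out. The median of the subunit names, −0.06, was 0.082 with GC content and length trends removed and −0.14 to −0.0054 with a library left out. That of the assembly factors, 0.22, was 0.31 and 0.14 to 0.36. The cause was not tested.

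The groups share replicate numbers that the labels tie to no mouse or day. Deviations of same-numbered libraries correlated at 0.146, 0.0383 and 0.128, and each library correlated best with its own number. This is a hint of pairing from the data and not from the design, so the numbers were not taken as pairs in the main fit. With the replicate block, 5636 of all tested genes passed, against 4741 without it. In that fit 11 subunit names passed (2 higher, 9 lower), adding Ndufs1 (adjusted p = 0.0347), Ndufs3 (0.0394), Ndufa9 (0.0276) and Ndufb11 (0.0159). The assembly factors stayed at 2.

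Members that changed sign had not passed. With GC content and length trends removed they were Ndufa5 (0.091), Ndufa6 (0.070), Ndufa7 (0.030), Ndufaf1 (0.12), Ndufb3 (0.12), Ndufb4c (0.11), Ndufb6 (0.10), Ndufb8 (0.086), Ndufs6 (0.060), Ndufs7 (−0.0030) and Ndufv2 (0.13). With quantile normalization they were Ndufb4c (0.020) and Ndufs7 (−0.011), and with TMM factors Ndufb2 (−0.00014). With a library left out, the log2 difference ranged over −0.15 to 0.36 for Ndufa1, −0.062 to 0.13 for Ndufa3, −0.23 to 0.00075 for Ndufa5, −0.13 to 0.026 for Ndufa6 and −0.012 to 0.19 for Ndufa8. It was −0.17 to 0.050 for Ndufaf1, −0.16 to 0.40 for Ndufaf4, −0.25 to 0.15 for Ndufb2, −0.16 to 0.022 for Ndufb3, −0.20 to 0.090 for Ndufb4c and −0.023 to 0.092 for Ndufb5. For Ndufb8 it was −0.11 to 0.078, for Ndufs6 −0.21 to 0.11, for Ndufs7 −0.052 to 0.060 and for Ndufv2 −0.11 to 0.041. With 3 libraries a group, small differences and genes with low values are the least certain. The alternatives for the iron-sulfur genes and other named genes were added after seeing the data.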

Other observations

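Several nuclear complex I genes start back to back with another gene on the opposite strand: 18 of the 46 members have a protein-coding gene starting divergently, with starts at most 1000 bases apart or overlapping by at most 300 bases. The members that passed and have such a partner are Ndufv3, Ndufaf5 and Ndufb9, and these partners were chosen after their values were seen. Wdr4, a partner of the tRNA methyltransferase Mettl1, starts 135 bases from Ndufv3 and was also lower. Its means were 387 ± 56.9 with itaconate and 552 ± 65.8 with NaCl (SD, n = 3 each). The log2 fold change of Wdr4 was −0.52 ± 0.15 (SE, limma adjusted p = 0.0161). Its call was lost without itaconate replicate 1 (0.0593), without NaCl replicate 3 (0.0791) and with no intensity trend (0.0514). Esf1, a nucleolar protein, starts 85 bases from Ndufaf5 and fell while Ndufaf5 rose, with a log2 fold change of −0.35 ± 0.11 (SE, limma adjusted p = 0.0285). The call of Esf1 was lost in 3 of the 6 fits with a library left out, without itaconate replicate 2 (0.111), NaCl replicate 1 (0.0993) or NaCl replicate 2 (0.0838), and with no intensity trend (0.0589). Tatdn1 starts 18 bases from Ndufb9 and did not pass, at −0.29 on the log2 scale (limma adjusted p = 0.207). Partners of members that did not pass also changed: Rnf113a1 and Cebpz were lower, and Fam126b and Eef1b2 higher. The remaining partners did not pass or were not among the tested genes. Of all tested genes, 36.0% passed in either direction. Whether members and their partners change together was not tested.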
